A study of Rattus norvegicus with 11 samples.

Results

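The genes examined here were 10 markers of mural cells, the cells that wrap blood vessels, picked by symbol from the deposited gene tables. They were the contractile genes Acta2, Tagln, Myh11 and Cnn1 and the pericyte genes Rgs5, Pdgfrb, Cspg4, Mcam, Abcc9 and Kcnj8, 10 of the 23781 genes listed. All 10 were among the 18049 genes that passed the filter on low counts. RNA-seq had been performed on Cd45- cells, that is, cells sorted for lack of the leukocyte protein Cd45, from nascent tissue of suture-bony composite defects made across the coronal sutures of 4-month-old Sprague Dawley rats, collected 6 weeks after surgery. The defects carried an electrospun membrane of polylactic acid (PLA, 2 libraries), a porous chitosan scaffold (CTS, 3 libraries), a gelatin methacryloyl hydrogel (GelMA, 3 libraries) or no scaffold (NC, 3 libraries). The sources used here do not say whether each library came from its own rat or from pooled tissue, so the p-values below measure only the spread between these libraries, which may be technical. The comparisons ask how the implanted material was related to the abundance of mural cell transcripts in the new tissue, and each was made with and without NC replicate 2, a library that stood apart from the rest.

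Mural cells comprise vascular smooth muscle cells, which ring arteries and veins and hold actin and myosin filaments for contraction, and pericytes, which lie against the endothelium of capillaries. Endothelial cells release platelet-derived growth factor B, and mural cells carry its receptor and are recruited to growing vessels through it. Contractile genes of smooth muscle are driven through the CArG box, a short DNA element bound by serum response factor together with its cofactor myocardin. Pericytes are often told from smooth muscle by higher levels of a signalling regulator (Rgs5), a membrane proteoglycan (Cspg4) and an ATP-sensitive potassium channel (Kcnj8 with Abcc9), while much of the marker set is shared by both.

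The libraries held between 22509898 and 31290849 counted reads. TMM scaling, which corrects for differences in composition, gave factors of 0.780 and 0.772 for PLA, 1.05 to 1.14 for CTS, GelMA and the other NC libraries, and 0.804 for NC replicate 2. In NC replicate 2 the summed level of 10 fibroblast markers was 235545 counts per 1000000 reads after TMM (CPM), against 9578 and 29749 CPM in NC replicates 1 and 3, and that of 10 leukocyte markers was 10660.0 CPM, against 66399.5 and 47131 CPM. The sort label did not show as an absence of leukocyte transcripts: Ptprc, which encodes Cd45, stood at 336 CPM in NC replicate 2 and at 1019.6 to 1459.7 CPM in the other 10 libraries. Because these were bulk samples, fewer cells of a type and less RNA per cell cannot be told apart for any gene below.

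With all libraries used, the calls among the 10 genes were all in comparisons of PLA. Cspg4, Mcam and Rgs5 were higher in PLA than in NC, Mcam and Tagln were higher in PLA than in GelMA and in CTS, and none of the 10 genes passed the test between CTS, GelMA and NC. A gene was called higher or lower when the Benjamini-Hochberg adjusted p of edgeR's quasi-likelihood test was under 0.05 and the log2 fold change went beyond 1 in size. In the test for any difference among the 4 groups, 4 of the 10 genes had an adjusted p under that threshold, against 18.8% of all genes tested. They were Mcam (edgeR adjusted p = 0.0139), Cspg4 (0.0388), Tagln (0.0398) and Rgs5 (0.0451). The same 4 genes and Pdgfrb (edgeR adjusted p = 0.00618) passed when NC replicate 2 was left out, 5 of 10 against 37.2% of all genes.

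**Figure D1:**
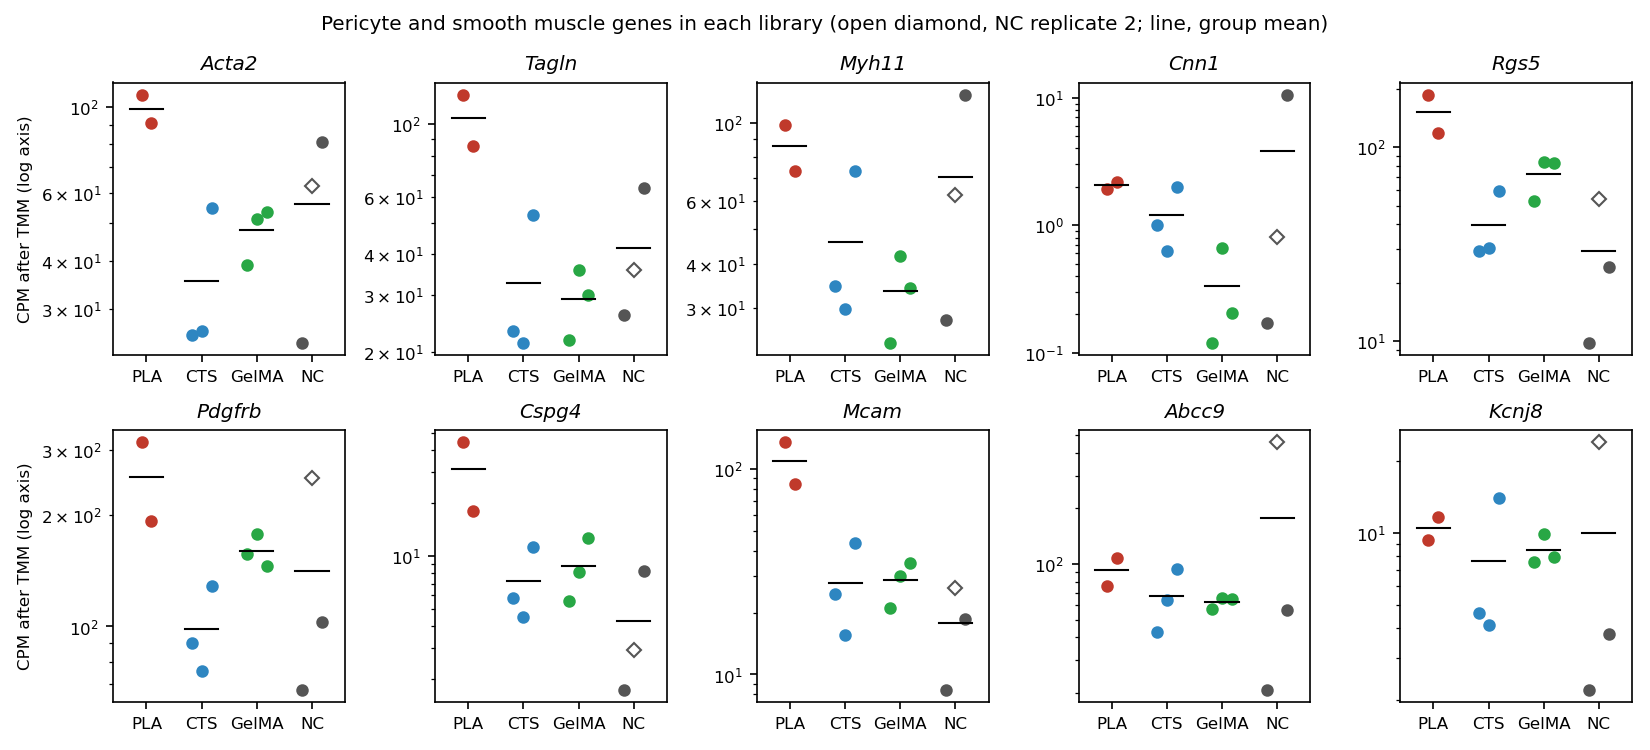
Level of each of the 10 genes in every library, in CPM after TMM on a log axis that differs between panels, with groups in the order PLA, CTS, GelMA and NC. Points are libraries, the open diamond is NC replicate 2 and the line is the group mean. Both PLA libraries lie above all GelMA libraries for 9 genes, and NC replicate 2 is the highest of all 11 libraries for Abcc9 and Kcnj8.

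Levels can be set against each other between genes only per length, as fragments per kilobase of gene and per 1000000 reads (FPKM). On that scale the mean over the 11 libraries was highest for Rgs5 at 115 FPKM, followed by Tagln at 42.5, Acta2 at 38.7, Pdgfrb at 27.6, Mcam at 12.8, Abcc9 at 11.8, Myh11 at 7.80, Kcnj8 at 3.28, Cspg4 at 1.29 and Cnn1 at 1.28 FPKM. This order did not hold in every library. In NC replicates 1 and 3 Tagln, at 26.0 and 66.1 FPKM, lay above Rgs5, at 18.9 and 48.0 FPKM, and the means of Abcc9 and Cnn1 were raised by single libraries, NC replicate 2 with 46.5 FPKM of Abcc9 and NC replicate 3 with 7.89 FPKM of Cnn1. The spread over libraries was wide for every gene. It was narrowest for Acta2, where the highest library had 4.37 times the CPM of the lowest, and widest for Cnn1, where it had 87.6 times. Single libraries also ranked alike across genes within a group. CTS replicate 3 was the highest CTS library for all 10 genes, GelMA replicate 1 was the lowest GelMA library for 9, and NC replicate 1 was the lowest NC library for all 10 and the lowest of all 11 libraries for 7. PLA replicate 1 was the highest of all libraries for 6 genes.

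Upstream DNA was available from RefSeq for 6 of the 10 genes (rat assembly GRCr8), as the 250 bases before the transcription start. Acta2 and Cnn1 are shown because both encode contractile proteins of the same cells and yet differed in level and in pattern. Rgs5 and Cspg4 are shown because they are 2 of the 3 pericyte genes called with all libraries. Mcam, the other pericyte gene called, had no window. Capitals mark, on either strand, a CArG box with at most 1 mismatch or the letters TATAA in Acta2, and the letters GGGCGG, which read CCGCCC on the other strand, in Rgs5 and Cspg4. The windows lie at chr1:241172504-241172753 on the minus strand (Acta2), chr8:28908187-28908436 on the plus strand (Cnn1), chr13:84380827-84381076 on the plus strand (Rgs5) and chr8:66160692-66160941 on the plus strand (Cspg4).
Acta2: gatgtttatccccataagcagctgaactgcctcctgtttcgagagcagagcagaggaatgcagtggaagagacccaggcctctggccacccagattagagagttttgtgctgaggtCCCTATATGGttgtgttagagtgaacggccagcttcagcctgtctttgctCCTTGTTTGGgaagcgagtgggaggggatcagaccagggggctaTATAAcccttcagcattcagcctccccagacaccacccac
Cnn1: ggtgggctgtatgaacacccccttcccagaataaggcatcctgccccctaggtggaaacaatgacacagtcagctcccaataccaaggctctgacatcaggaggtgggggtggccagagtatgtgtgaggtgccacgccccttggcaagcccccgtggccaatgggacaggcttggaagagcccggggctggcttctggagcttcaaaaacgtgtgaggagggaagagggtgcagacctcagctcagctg
Rgs5: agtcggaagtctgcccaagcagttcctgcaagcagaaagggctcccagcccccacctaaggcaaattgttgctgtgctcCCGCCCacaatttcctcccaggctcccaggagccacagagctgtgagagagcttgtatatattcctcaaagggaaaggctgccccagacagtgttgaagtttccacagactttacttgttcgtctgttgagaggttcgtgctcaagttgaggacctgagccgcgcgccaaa
Cspg4: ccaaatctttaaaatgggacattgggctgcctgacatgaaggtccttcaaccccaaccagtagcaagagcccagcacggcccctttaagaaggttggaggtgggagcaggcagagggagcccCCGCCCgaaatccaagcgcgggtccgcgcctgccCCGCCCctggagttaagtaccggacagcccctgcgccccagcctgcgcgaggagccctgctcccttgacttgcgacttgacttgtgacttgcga
Acta2 held 2 matches to the CArG box, 134 and 84 bases before the start, and TATAA 40 bases before it. A CArG box with at most 1 mismatch was found in 18.7% of the 33469 windows of this length, 2 or more of them in 3.05%, and TATAA in 24% of the windows. Cnn1, Rgs5, Cspg4, Abcc9 and Kcnj8 had no CArG match in this window. GGGCGG was found once in Rgs5, Abcc9 and Kcnj8 and 2 times in Cspg4, against 30.5% of all windows with at least 1. The number of CG pairs in the window was 3 in Acta2, 4 in Cnn1, 7 in Rgs5, 14 in Cspg4, 19 in Abcc9 and 18 in Kcnj8, and the median over all windows was 5. These are letter matches and not measured binding.

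Among the contractile genes, Tagln encodes transgelin, an actin-binding protein that is abundant in smooth muscle. Its level was 123 and 85.5 CPM in PLA, 23.3, 21.4 and 52.8 CPM in CTS, 21.9, 35.8 and 30.0 CPM in GelMA, and 26.1, 35.7 and 63.8 CPM in NC. Both PLA libraries were above every other library, and CTS, GelMA and NC overlapped. The log2 fold change was 1.84 (SE 0.45) for PLA against GelMA and 1.68 (SE 0.45) for PLA against CTS, with edgeR adjusted p of 0.0343 and 0.0345. Against NC it was 1.32 (SE 0.45), with an adjusted p of 0.0760 that did not pass. Tagln was called against NC by DESeq2 (adjusted p = 0.0273), without CTS replicate 3 (0.0490) and without NC replicate 3 (0.0459). The calls against GelMA and CTS were lost when some single libraries were left out, while the log2 fold change stayed between 1.54 and 2.07 against GelMA and between 1.39 and 2.17 against CTS. Without PLA replicate 1 the adjusted p of Tagln was 0.205 against GelMA and 0.214 against CTS, without PLA replicate 2 it was 0.104 and 0.0948, and without GelMA replicate 1, 2 or 3 it was 0.131, 0.0817 and 0.0935 in the comparison with GelMA, and 0.0502, 0.0548 and 0.0571 in that with CTS. The call for Tagln against CTS was also lost without CTS replicate 1 (adjusted p = 0.121) or CTS replicate 2 (0.117). With library totals in place of TMM the adjusted p of Tagln was 0.0690 against GelMA and 0.0877 against CTS.

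Acta2 encodes smooth muscle alpha-actin, the actin of the contractile filaments, which activated fibroblasts also make. It measured 107 and 90.6 CPM in PLA, 25.6, 26.3 and 54.6 CPM in CTS, 39.0, 51.2 and 53.6 CPM in GelMA, and 24.6, 62.3 and 81.2 CPM in NC. The PLA libraries again were the highest of the 11, but NC alone spanned a 3.31-fold range. Acta2 in PLA gave a log2 fold change of 0.82 (SE 0.45) relative to NC, 1.05 (SE 0.45) relative to GelMA and 1.48 (SE 0.45) relative to CTS. None passed the edgeR test, the lowest adjusted p being 0.0567 against CTS. That comparison of Acta2 passed with RLE size factors (adjusted p = 0.0434), in a fit of PLA and CTS alone (0.0198), in DESeq2 (0.00911), and without CTS replicate 3 (0.0312) or NC replicate 1 (0.0131). Actin genes share near-identical coding sequence, so part of the reads counted for Acta2 may belong to a related gene such as Actg2, the other smooth muscle actin, which measured 8.91 and 5.63 CPM in PLA, 0.827 to 2.49 CPM in CTS, 2.31 to 3.64 CPM in GelMA and 0 to 12.9 CPM in NC.

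Myh11 encodes the smooth muscle myosin heavy chain, the most specific of the contractile markers. The libraries held 99.0 and 73.2 CPM in PLA, 34.6, 29.8 and 73.3 CPM in CTS, 23.9, 42.1 and 34.1 CPM in GelMA, and 27.6, 62.7 and 120.3 CPM in NC. PLA lay above all GelMA libraries but overlapped CTS and NC, and the highest value was in NC replicate 3. In PLA its log2 fold change was 0.29 (SE 0.55, edgeR adjusted p = 0.775) relative to NC, 1.37 (SE 0.55, 0.152) relative to GelMA and 0.91 (SE 0.55, 0.312) relative to CTS. For GelMA against NC it was -1.07 (SE 0.50, 0.194), and leaving out NC replicate 1 alone moved it past the test, to -1.46 with an adjusted p of 0.0469. Relative to Myh11, Tagln was more abundant in PLA than elsewhere. The ratio of Tagln to Myh11 in FPKM was 8.35 and 7.84 in PLA, 4.51 to 4.84 in CTS, 5.71 to 6.15 in GelMA and 6.34, 3.81 and 3.56 in NC, so that the PLA libraries lay above the other 9.

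Cnn1, which encodes calponin 1, a protein that binds actin and restrains myosin in smooth muscle, was the scarcest contractile gene. Its read counts were 46 and 51 in PLA, 34, 20 and 61 in CTS, 4, 22 and 7 in GelMA, and 4, 18 and 275 in NC. In CPM these were 1.91 and 2.19 in PLA, 1.00, 0.632 and 2.00 in CTS, 0.120, 0.668 and 0.204 in GelMA, and 0.170, 0.813 and 10.5 in NC. NC replicate 3 alone held the high NC value, and the NC libraries differed 62.0-fold among themselves. The log2 fold change was -3.52 (SE 1.29, edgeR adjusted p = 0.109) for GelMA against NC and -1.66 (SE 1.18, 0.605) for CTS against NC. For PLA it was -0.91 (SE 1.32, 0.699) relative to NC, 2.62 (SE 1.33, 0.257) relative to GelMA and 0.76 (SE 1.28, 0.755) relative to CTS. Cnn1 was called lower in GelMA than in NC at a log2 fold change of -4.00 (adjusted p = 0.0469) without NC replicate 2, and at -4.09 (0.0309) without NC replicate 1. Without NC replicate 3 the difference for GelMA against NC shrank to -0.63 (adjusted p = 0.710) and that for PLA against NC turned to 1.97 (0.242). NC replicate 3 was also the NC library with the highest Myh11, Acta2 and Tagln, and its ratio of Cnn1 to Myh11 in FPKM was 0.425, against 0.0299 and 0.0630 in the other NC libraries.

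Turning to the pericyte genes, Mcam encodes the adhesion molecule CD146, found on pericytes, smooth muscle and endothelium. It measured 135 and 84.5 CPM in PLA, 24.6, 15.6 and 43.5 CPM in CTS, 21.1, 30.1 and 35.0 CPM in GelMA, and 8.40, 26.5 and 18.7 CPM in NC. Both PLA libraries were above the other 9, and CTS, GelMA and NC overlapped. The log2 fold change was 2.62 (SE 0.50, edgeR adjusted p = 0.00697) for PLA against NC, 1.97 (SE 0.50, 0.0265) for PLA against CTS and 1.93 (SE 0.50, 0.0390) for PLA against GelMA. Mcam alone of the 10 genes was called in all 3 comparisons of PLA. In the comparison of PLA with NC, 3 of the 10 genes were called higher and 0 lower, against 8.32% and 4.01% of all genes tested. For PLA against GelMA, 4.61% of all genes were called higher and 1.47% lower, and for PLA against CTS 6.42% and 3.53%. Mcam and Tagln were the 2 genes of the 10 called higher in each, and 0 were called lower. Without PLA replicate 1 all 3 calls of Mcam were lost, with adjusted p of 0.0633 relative to NC, 0.236 relative to GelMA and 0.189 relative to CTS. Without PLA replicate 2 those against GelMA (0.105) and CTS (0.0693) were lost. For Mcam against GelMA the call was also lost without CTS replicate 1 (0.0629), GelMA replicates 1, 2 or 3 (0.144, 0.117 and 0.0828) or NC replicate 3 (0.0582), and for Mcam against CTS without CTS replicate 1 (0.0964) or CTS replicate 2 (0.0899).

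Rgs5 encodes a regulator of G-protein signalling that shortens signals from vasoactive receptors and is widely used to mark pericytes. Its level was 186 and 118 CPM in PLA, 29.1, 30.3 and 59.6 CPM in CTS, 52.5, 83.6 and 83.1 CPM in GelMA, and 9.84, 53.8 and 24.1 CPM in NC. PLA lay above the other 9 libraries, and GelMA replicates 2 and 3 lay above all CTS and NC libraries. The log2 fold change was 2.37 (SE 0.58, edgeR adjusted p = 0.0218) for PLA against NC, 1.94 (SE 0.58, 0.0514) against CTS and 1.05 (SE 0.57, 0.288) against GelMA. GelMA exceeded NC by 1.32 (SE 0.53, 0.138) and CTS differed from NC by 0.44 (SE 0.52, 0.779). The call of Rgs5 for PLA against NC was lost without PLA replicate 1 (adjusted p = 0.140), PLA replicate 2 (0.0596) or NC replicate 3 (0.0782). Once NC replicate 2, whose Rgs5 was the highest of the NC libraries, was left out, the log2 fold change against NC became 3.16 for PLA (adjusted p = 0.00269) and 2.10 for GelMA (0.0157), and both were called, as was PLA against CTS (1.94, 0.0120).

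Cspg4 encodes NG2, a membrane proteoglycan of pericytes that is also made by oligodendrocyte precursors and cartilage cells. It had 44.4 and 18.2 CPM in PLA, 5.79, 4.52 and 11.4 CPM in CTS, 5.59, 8.13 and 12.7 CPM in GelMA, and 1.74, 2.94 and 8.27 CPM in NC. Both PLA libraries were above the rest, although they differed 2.44-fold from each other. Cspg4 gave a log2 fold change of 2.85 (SE 0.67, edgeR adjusted p = 0.0185) for PLA against NC, 2.12 (SE 0.66, 0.0598) against CTS and 1.83 (SE 0.66, 0.114) against GelMA. Without PLA replicate 1, the library with the highest Cspg4, the adjusted p against NC was 0.164. Leaving out NC replicate 2 gave 0.0358 against NC, and 0.0465 against CTS, which was then called. In the RefSeq annotation Cspg4 overlaps Cimap1c and a tRNA gene. Since the use of strand in counting is not stated, how reads from the overlapping stretches were counted is not known.

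Pdgfrb encodes the receptor for platelet-derived growth factor B that mural cells use to follow endothelium, and fibroblasts carry it too. The libraries measured 315 and 193 CPM in PLA, 90.3, 75.8 and 129 CPM in CTS, 157, 178 and 145 CPM in GelMA, and 67.3, 253 and 103 CPM in NC. PLA lay above all CTS and GelMA libraries, CTS lay below all GelMA libraries (a pattern shown by 19% of all genes), and NC replicate 2 stood between the PLA libraries. With all libraries the log2 fold change was 0.85 (SE 0.47, edgeR adjusted p = 0.253) for PLA against NC, 0.67 (SE 0.47, 0.418) against GelMA and 1.37 (SE 0.47, 0.0809) against CTS, and -0.70 (SE 0.43, 0.452) for CTS against GelMA. Without NC replicate 2, Pdgfrb was called higher in PLA than in NC (1.58, SE 0.31, adjusted p = 0.00439) and than in CTS (1.37, SE 0.27, 0.00483). The fold change against CTS was the same to 2 decimals in both fits, and its standard error was smaller in the fit without that library. GelMA against NC then reached an adjusted p of 0.0451 at a log2 fold change of 0.91, short of the fold required. Pdgfrb was lower relative to Rgs5 in PLA than in NC, with FPKM ratios of 0.172 and 0.166 in PLA, 0.219 to 0.314 in CTS, 0.177 to 0.303 in GelMA and 0.692, 0.475 and 0.432 in NC.

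Abcc9 and Kcnj8 encode the sulfonylurea receptor and the pore of the ATP-sensitive potassium channel of vascular mural cells, which sets membrane potential by metabolic state. They lie next to each other in the rat genome, with 0 protein-coding genes between them. Abcc9 measured 76.5 and 108 CPM in PLA, 43.0, 64.1 and 94.2 CPM in CTS, 57.2, 65.1 and 64.8 CPM in GelMA, and 20.8, 456 and 56.4 CPM in NC. Kcnj8 measured 9.33 and 11.6 CPM in PLA, 4.64, 4.14 and 14.0 CPM in CTS, 7.54, 9.93 and 7.97 CPM in GelMA, and 2.21, 23.9 and 3.79 CPM in NC. Both genes peaked in NC replicate 2, where Abcc9 was 22.0 times and Kcnj8 10.8 times its level in NC replicate 1. No comparison of either gene passed the edgeR test with all libraries. For Abcc9 the log2 fold change against NC was -0.94 (SE 0.97, adjusted p = 0.560) for PLA, -1.41 (SE 0.86, 0.541) for CTS and -1.51 (SE 0.86, 0.282) for GelMA, and without NC replicate 2 these became 1.26 (SE 0.47, 0.0808), 0.80 (SE 0.43, 0.407) and 0.69 (SE 0.43, 0.291). For Kcnj8 they were 0.08 (SE 0.87, 0.969), -0.39 (SE 0.78, 0.886) and -0.23 (SE 0.78, 0.876) with all libraries, and 1.80 (SE 0.56, 0.0336), 1.34 (SE 0.52, 0.239) and 1.49 (SE 0.52, 0.0617) without it, so that only the comparison of PLA with NC was called. The ratio of Kcnj8 to Abcc9 in FPKM was 0.365 and 0.322 in PLA, 0.194 to 0.446 in CTS, 0.369 to 0.456 in GelMA and 0.318, 0.157 and 0.201 in NC, the lowest of all libraries being NC replicate 2. Of the other subunits of such channels, Kcnj11 did not pass the filter on low counts, and Abcc8 passed it with 0 calls in the 6 comparisons and 0 at an unadjusted p under 0.05 with all libraries, while without NC replicate 2 it was at such a p, higher, in PLA against CTS.

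**Figure D2:**
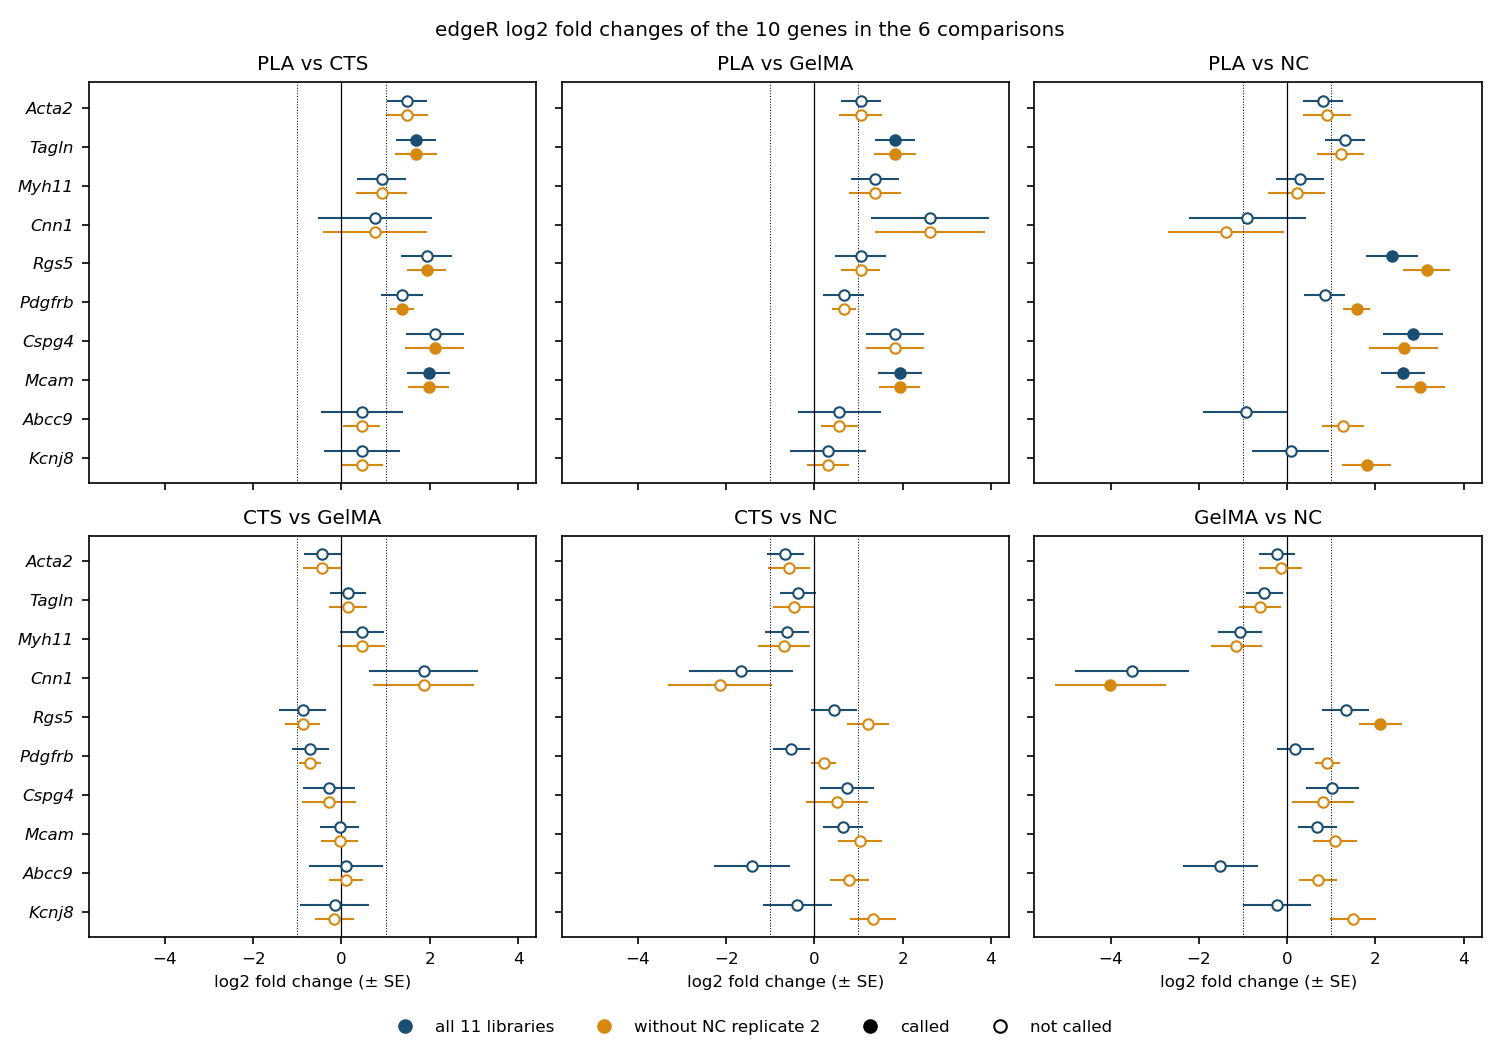
edgeR log2 fold changes (horizontal axis, points, with bars of 1 standard error either side) of the 10 genes in the 6 comparisons, with all 11 libraries (blue) and without NC replicate 2 (orange). Filled points were called and dotted lines mark a log2 fold change of 1 in either direction. The values for Abcc9 against NC change sign between the fits, while those of Mcam, Rgs5 and Cspg4 for PLA lie right of 0 in both.

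Read together by comparison, the log2 fold change was above 0 for all 10 genes in PLA against GelMA, where 47.7% of all genes tested were above 0, for all 10 in PLA against CTS (48.5%) and for 8 in PLA against NC (44.4%). Both PLA libraries were above every GelMA library for 9 genes (27.7% of all genes), above every CTS library for 6 (26.5%) and above every NC library for 5 (21.9%). Kcnj8 was the exception against GelMA, since GelMA replicate 2 lay between the PLA libraries. PLA was above both NC libraries other than replicate 2 for 8 genes, all but Myh11 and Cnn1, against 32.4% of all genes. For PLA against NC the median log2 fold change was 1.61 over the 6 pericyte genes and 0.56 over the 4 contractile genes, where all genes tested had -0.11. For PLA against GelMA these medians were 0.86, 1.60 and -0.04, and for PLA against CTS they were 1.65, 1.19 and -0.03. Without NC replicate 2 those for PLA against NC became 2.22, 0.56 and 0.03. These 3 comparisons share the PLA libraries. The 10 genes were chosen with earlier results of these data known, and single libraries ranked alike across them. The counts are therefore a description and not 10 separate observations.

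Between the other groups no gene of the 10 was called with all libraries. For GelMA against NC, where 5.03% of all genes were called higher and 3.21% lower, edgeR called 0 of the 10 genes, and 2 had an unadjusted p under 0.05, Rgs5 (higher) and Cnn1 (lower). DESeq2 called Cnn1 lower there, and limma on log2 FPKM with a filter on low values called Rgs5 higher. The median log2 fold change for GelMA against NC was 0.44 over the pericyte genes and -0.80 over the contractile genes, against -0.05 over all genes. Rgs5 was called higher and Cnn1 lower without NC replicate 2 (7.26% and 6.71% of all genes), and the medians were then 1.00 and -0.89. For CTS against NC and CTS against GelMA, edgeR called 0 of the 10 genes in either direction, 0 had an unadjusted p under 0.05, and DESeq2 and limma called 0. The shares of all genes called there were also small, 0.155% higher and 0.0222% lower for CTS against NC, and 0.416% and 1.32% for CTS against GelMA. With NC replicate 2 left out, both comparisons again had 0 of the 10 genes called, where 0.609% of all genes were higher and 0.145% lower for CTS against NC and 3.75% and 3.38% for CTS against GelMA. At an unadjusted p under 0.05 that fit had 2 of the genes for CTS against NC, Rgs5 and Kcnj8, both higher, and Pdgfrb, lower, for CTS against GelMA. In the same fit 5 of the 10 genes were called higher and 0 lower for PLA against NC, against 11.4% and 7.58% of all genes. For PLA against CTS 5 were called higher and 0 lower (8.88% and 6.21%), and for PLA against GelMA Mcam and Tagln were again the 2 called higher, with 0 lower (7.2% and 3.49%).

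The count of called genes moved with the library left out. For PLA against NC it ran from 0, without PLA replicate 1, to 5, without NC replicate 2. The calls over all genes moved as well, with 878 and 2045 genes higher in those fits, against 1502 with all libraries. For PLA against GelMA it ran from 0 to 2, being 0 without either PLA library or any GelMA library, where 366 to 539 of all genes were higher, against 832 with all libraries. For PLA against CTS it ran from 0, without PLA replicate 1 or 2 or CTS replicate 1 or 2, to 6 without NC replicate 1, was 1 without any GelMA library, 5 without NC replicate 2 and 3 without CTS replicate 3 or NC replicate 3. There 642 and 674 of all genes were higher without PLA replicates 1 and 2, 740 and 746 without CTS replicates 1 and 2, and 1419 without NC replicate 1, against 1158 with all libraries. The 7 differences called with all libraries kept their direction under every library left out. A fit of PLA and NC alone called 0 of the 10 genes, with adjusted p of 0.0642 for Mcam, 0.126 for Cspg4 and 0.149 for Rgs5, at log2 fold changes of 2.67, 2.91 and 2.43. Over all genes that fit called 593 higher. A fit of PLA and GelMA alone called 7 of the 10 genes and 1665 of all genes higher.

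The other genes of the mural programme were counted from lists. Of 10 other pericyte genes, 6 were called higher in PLA than in NC, 0 in PLA than in GelMA (2 at an unadjusted p under 0.05) and 1 in PLA than in CTS, and 2 were called higher in GelMA than in NC. The shares of all genes called higher in these comparisons were 8.32%, 4.61%, 6.42% and 5.03%. Ndufa4l2 and Cox4i2, which encode subunit-like proteins of the mitochondrial respiratory chain, moved most. Ndufa4l2 had 16.96 and 14.9 CPM in PLA, 2.30 to 4.95 CPM in CTS, 6.49, 10.05 and 8.76 CPM in GelMA and 0.382, 1.72 and 0.842 CPM in NC, without overlap between PLA and the rest or between GelMA and NC. Its log2 fold change was 4.02 (SE 0.56, edgeR adjusted p = 0.00107) for PLA against NC, 3.11 (SE 0.52, 0.00543) for GelMA against NC and 2.30 (SE 0.52, 0.0168) for PLA against CTS. Cox4i2 had 15.8 and 8.90 CPM in PLA, 2.78 to 4.68 CPM in CTS, 3.71 to 6.53 CPM in GelMA and 0.170, 1.45 and 0.459 CPM in NC, and was called for PLA against NC (4.16, SE 0.68, 0.00297) and GelMA against NC (2.92, SE 0.63, 0.0176). Gja4, which encodes the gap junction protein connexin 37, was called for PLA against NC (1.98, SE 0.59, 0.0457). In the fit without NC replicate 2, Gja4 no longer passed (adjusted p = 0.0567), and 8 of the 10 genes were called higher in PLA than in NC, 4 in GelMA than in NC, 5 in PLA than in CTS and 2 in PLA than in GelMA, where 11.4%, 7.26%, 8.88% and 7.2% of all genes were.

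Of 16 other contractile and cytoskeletal genes of smooth muscle, 1 was called higher and 1 lower in PLA than in NC, 2 were called higher in PLA than in CTS, and 0 were called in PLA against GelMA (5 at an unadjusted p under 0.05, all higher). Of all genes, 8.32% were called higher and 4.01% lower in PLA than in NC and 6.42% higher in PLA than in CTS, so that the counts in PLA against NC lay near the background. Itga8, an integrin chain of smooth muscle and mesenchyme, was higher in PLA at 38.2 and 27.3 CPM, against 10.3 to 14.2 CPM in CTS and 11.9 to 19.5 CPM in NC (log2 fold changes 1.36, SE 0.32, and 1.12, SE 0.32, with edgeR adjusted p of 0.0194 and 0.0378). Tpm1, a tropomyosin that winds along actin filaments, was higher in PLA than in CTS by 1.30 (SE 0.33, 0.0281). Pln, which encodes phospholamban, the brake on the calcium pump of the sarcoplasmic reticulum, went the other way, with 1.87 and 0.559 CPM in PLA, against 12.3, 6.69 and 8.42 CPM in NC (-2.91, SE 0.69, 0.0184). NC replicate 2 bore on this list too. In the fit without it, 3 of the 16 genes were called higher in PLA than in NC, with Itga8 no longer among them. The share of all genes called higher there was 11.4%. For PLA against GelMA the list had 2 such genes, beside 7.2% of all genes, and for PLA against CTS 4, beside 8.88%. With all libraries these 3 shares were lower, at 8.32%, 4.61% and 6.42%, so the calls rose over all genes too.

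Among 8 transcription regulators, Heyl, a target of Notch signalling, was called higher in PLA in all 3 comparisons, with 29.9 and 18.7 CPM in PLA, 4.39 to 8.78 CPM in CTS, 6.88 to 9.99 CPM in GelMA and 5.24 to 5.82 CPM in NC. The log2 fold change of Heyl was 2.16 (SE 0.35, edgeR adjusted p = 0.00266) relative to NC, 1.54 (SE 0.34, 0.0229) relative to GelMA and 2.05 (SE 0.35, 0.00415) relative to CTS. Foxs1, a forkhead factor of pericytes, was called only against NC (3.06, SE 0.83, 0.0329). Srf, Myocd, Mrtfa, Mrtfb, Klf4 and Tbx18 were called in no comparison, with or without NC replicate 2. Srf, the factor that binds the CArG box, measured 61.9 and 52.0 CPM in PLA and 45.2 to 57.8 CPM in the other libraries. The regulators called higher in PLA numbered 2 relative to NC, 1 relative to GelMA and 1 relative to CTS. Of all genes, 8.32%, 4.61% and 6.42% were. Without NC replicate 2 the numbers of regulators were unchanged, beside 11.4%, 7.2% and 8.88% of all genes. Klf4 averaged 1622 CPM in NC with an SD of 1492 CPM. Its lack of a call with all libraries therefore does not show equal levels.

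On the ligand side, 1 of 5 genes of the PDGF family was called higher in each comparison of PLA. The shares of all genes called higher in PLA were 8.32% relative to NC, 4.61% relative to GelMA and 6.42% relative to CTS. Pdgfa, whose product acts mainly through the other PDGF receptor, had 39.8 and 28.2 CPM in PLA, 4.68 to 12.8 CPM in CTS, 11.3 to 14.3 CPM in GelMA and 8.49 to 11.5 CPM in NC, with log2 fold changes of 1.77 (SE 0.36, edgeR adjusted p = 0.00894) relative to NC, 1.37 (SE 0.36, 0.0405) relative to GelMA and 2.01 (SE 0.36, 0.00558) relative to CTS. Pdgfb, the endothelial ligand of Pdgfrb, had 14.2 and 11.2 CPM in PLA, 7.15, 4.08 and 12.1 CPM in CTS, 6.40 to 6.92 CPM in GelMA and 3.75 to 6.32 CPM in NC, and was not called. Pdgfd was called lower in GelMA than in NC (-2.91, SE 0.82, 0.0498), with 6.62 to 9.10 CPM in GelMA, against 7.04, 136 and 29.7 CPM in NC, where replicate 2 set the level. With that library left out the log2 fold change of Pdgfd was -1.26 (adjusted p = 0.104). Of 4 angiopoietin and Tie receptor genes, 0 were called in any comparison, with at most 2 at an unadjusted p under 0.05. Of 4 other small RGS genes, Rgs4, another regulator of G-protein signals, was higher in PLA in all 3 comparisons, with 69.4 and 42.6 CPM in PLA, 11.9 to 26.4 CPM in CTS, 14.9 to 17.6 CPM in GelMA and 7.21 to 22.9 CPM in NC (log2 fold changes of 2.11, 1.82 and 1.66 relative to NC, GelMA and CTS, with SE of 0.49, 0.48 and 0.48 and edgeR adjusted p of 0.0168, 0.0437 and 0.0468). Rgs1 and Rgs2 were called higher in PLA than in NC and in GelMA than in NC, where 8.32% and 5.03% of all genes were called higher.

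Markers of cell types that share these genes were measured beside them, and their part in the results was not tested. The summed level of 10 endothelial markers was 361 and 320 CPM in PLA, 193 to 393 CPM in CTS, 183 to 212 CPM in GelMA and 206 to 237 CPM in NC. Of these 10 markers, 2 were called higher in PLA than in NC (Esam and Vwf), 5 in PLA than in GelMA (Cdh5, Egfl7, Erg, Plvap and Vwf) and 0 in PLA than in CTS, with 1 at an unadjusted p under 0.05, where 8.32%, 4.61% and 6.42% of all genes were called higher. Erg, an endothelial transcription factor, did not follow in PLA against NC, with 19.8 and 20.0 CPM in PLA, against 52.9, 19.7 and 44.7 CPM in NC, and it was called lower there without NC replicate 2. The comparison of PLA with GelMA, where Tagln and Mcam were called, also held higher endothelial markers, and Mcam is itself made by endothelium. Tagln and Mcam were called in PLA against CTS too, where 0 endothelial markers were called. Whether endothelial content bore on these calls was not tested. In CTS replicate 3, the CTS library highest for all 10 mural genes, the endothelial markers summed to 393 CPM, against 237 and 193 CPM in the other CTS libraries. Vwf was 63.2 CPM and Cdh5 49.0 CPM, against 28.3 and 26.5 CPM (Vwf) and 30.7 and 20.1 CPM (Cdh5) in CTS replicates 1 and 2, whereas Erg was 28.4 CPM, against 26.9 and 37.3 CPM.

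The 10 fibroblast markers summed to 26158 and 39512 CPM in PLA, 23645 to 38362 CPM in CTS, 25931 to 26964 CPM in GelMA and, besides the 235545 CPM of NC replicate 2, 9578 and 29749 CPM in NC. With all libraries none of these markers was called in any comparison, with at most 2 at an unadjusted p under 0.05. The spread in that fit included NC replicate 2, so the lack of calls does not show equal levels. NC replicate 2, with Pdgfra at 336 CPM against 40.9 to 175 CPM in the other 10 libraries, was also the library that held the highest Abcc9 and Kcnj8. The leukocyte markers summed to 12911 and 14364 CPM in PLA, 36530.0 to 50593 CPM in CTS, 12329 to 22333 CPM in GelMA and 10660.0 to 66399.5 CPM in NC, so that NC replicate 1, lowest for 7 of the 10 genes, was the library with the largest sum. S100a8, S100a9 and Lyz2, genes of neutrophils and other myeloid cells, made up most of these sums, with means of 3011, 4441 and 3395 CPM in PLA and 14666, 16307 and 10815 CPM in CTS.

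The other leukocyte markers did not follow that sum. Cd68, a macrophage protein, and Cd3e, a chain of the T cell receptor complex, were called higher in PLA than in NC, with means of 105 and 33.1 CPM in PLA, against 44.8 and 6.78 CPM in NC. Cd3e, Cd68, Cd74, Cd79b and Csf1r were called higher in GelMA than in NC, Cd74 and Cd79b lower in PLA than in GelMA, Cd79b lower in PLA than in CTS, and Cd3e and Cd79b lower in CTS than in GelMA. Without NC replicate 2 the markers called in PLA against NC were Cd3e and Cd74, higher, and Lyz2, S100a8 and S100a9, lower, and Itgam, an integrin chain of myeloid cells with a mean of 722 CPM in PLA, against 343 CPM in CTS, was called higher in that comparison.

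Skeletal muscle markers summed to 29.8 to 65.3 CPM over all libraries with 0 of 8 tested called in any comparison, at most 2 having an unadjusted p under 0.05. Myh2 and Myh4 did not pass the filter on low counts. Sox10, which defines the Schwann and oligodendrocyte lineages that also make Cspg4, was at 0.121 to 0.788 CPM. Acan and Sox9, markers of chondrocytes, which are another source of Cspg4, summed to 5.64 and 4.04 CPM in PLA, against 16.3, 3.80 and 31.4 CPM in NC. The chondrocyte markers Col2a1 and Col9a1 did not pass the filter on low counts and are not in this sum.

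**Figure D3:**
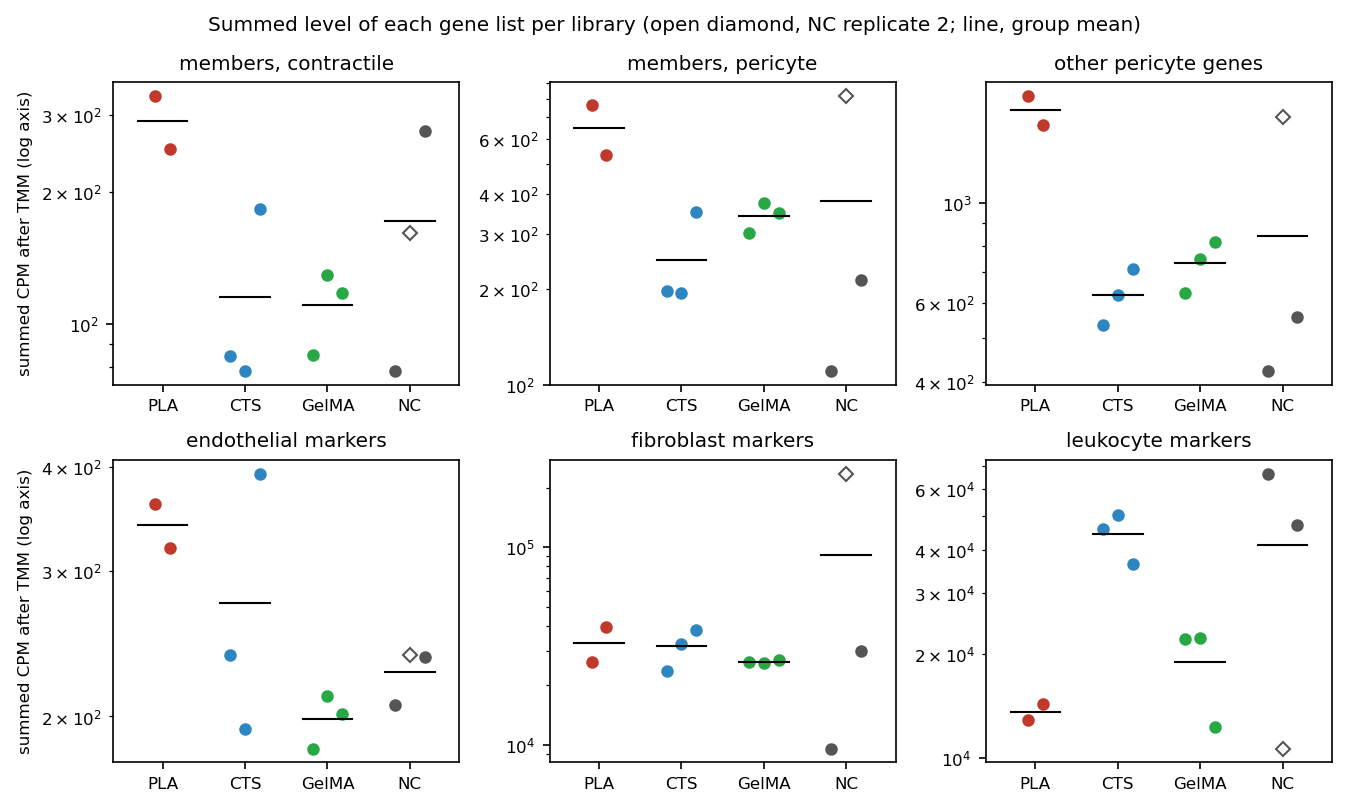
Summed level of the contractile genes, the pericyte genes, 10 other pericyte genes and 3 marker lists in each library, in CPM after TMM on log axes that differ between panels, with groups in the order PLA, CTS, GelMA and NC. Points are libraries, the open diamond is NC replicate 2 and the line is the group mean. The contractile and pericyte sums of PLA lie above all CTS and GelMA libraries but not above all NC libraries. For the pericyte genes NC replicate 2, at 816 CPM, lies above both PLA libraries, at 766 and 533 CPM. For the contractile genes NC replicate 3, at 276 CPM, lies above PLA replicate 2, at 251 CPM. NC replicate 2 stands at 235545 CPM of fibroblast markers, above the other 10 libraries.

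Likeness across the 11 libraries was measured to Myh11 and to Rgs5. It is given as Pearson's r of log2 CPM over libraries that share groups and scaling, for 12392 genes, as a description. The genes most like Myh11 were Igfbp7 (0.91), Sparcl1 (0.89), Myl9 (0.89), Xirp1 (0.89) and LOC100911068 (0.88), with Tagln at rank 4 (0.89) and Acta2 at rank 24 (0.85). Myl9 encodes a regulatory light chain of smooth muscle myosin, Igfbp7 and Sparcl1 encode secreted matrix-associated proteins, and Xirp1 an actin-binding protein of striated muscle. Among the genes most like Rgs5 were Notch3 (0.99), Col7a1 (0.97), Col18a1 (0.97) and RGD1305298 (0.97), with Mcam at rank 68 (0.92), Pdgfrb at rank 283 (0.87) and Cspg4 at rank 395 (0.84). The other pericyte genes, Kcnj8 (0.73) and Abcc9 (0.49), overlapped in likeness to Rgs5 with the contractile genes Acta2 (0.72) and Tagln (0.60). Between Myh11 and Rgs5 themselves r was 0.39. Without NC replicate 2 the value of Rgs5 with Abcc9 was 0.82 and that with Kcnj8 0.88, while that with Notch3 stayed at 0.99.

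Notch3 encodes the Notch receptor of mural cells. It measured 123 and 80.9 CPM in PLA, 22.7, 30.5 and 51.5 CPM in CTS, 46.1, 62.6 and 69.5 CPM in GelMA, and 12.6, 45.2 and 30.9 CPM in NC, so both PLA libraries were above the other 9. Its log2 fold change was 1.78 (SE 0.48, edgeR adjusted p = 0.0315) for PLA against NC, where it was called.

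**Figure D4:**
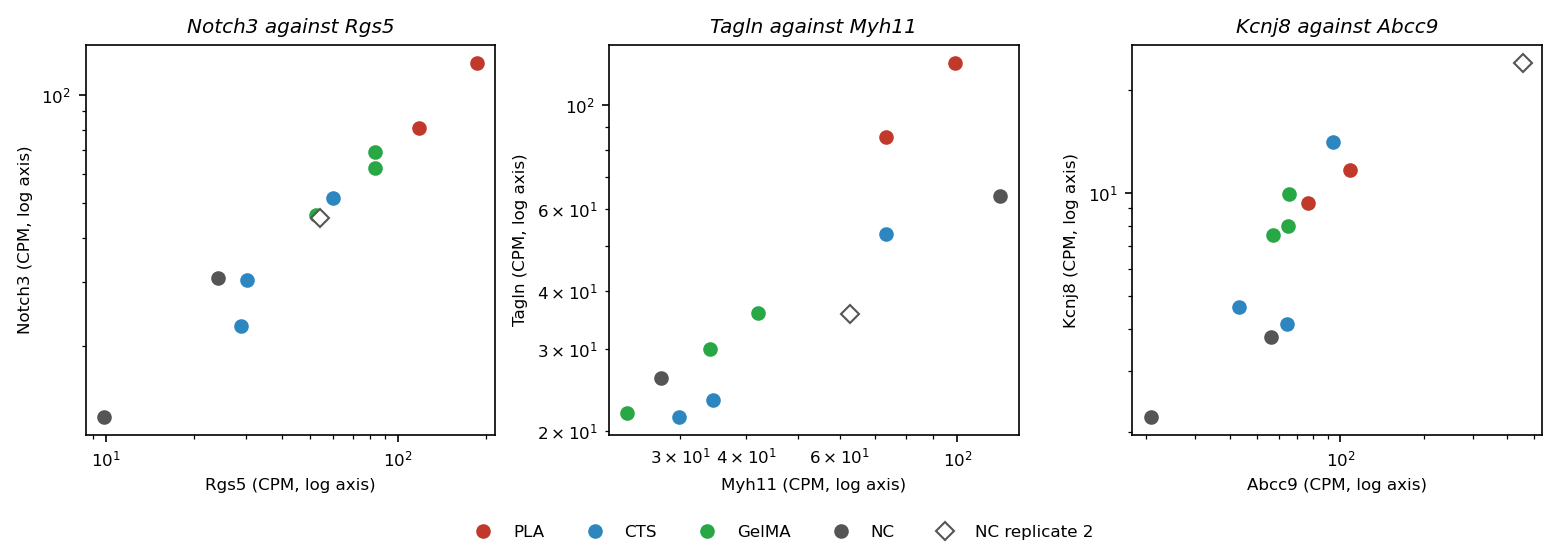
Levels of Notch3 against Rgs5, Tagln against Myh11 and Kcnj8 against Abcc9 in the 11 libraries, in CPM after TMM on log axes. Points are libraries coloured by group and the open diamond is NC replicate 2. The points of Notch3 and Rgs5 lie along a line (r = 0.99), the PLA libraries lie above the course of the others for Tagln against Myh11, and NC replicate 2 stands at 456 CPM of Abcc9 and 23.9 CPM of Kcnj8.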

How the data were processed

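Paired counts and FPKM of 23781 genes were deposited for 11 libraries of sorted Cd45- cells, made with the VAHTS Universal V6 kit. The submitters' notes name fastp, HISAT2, HTSeq, DESeq and mRatBN7.2, without versions. The deposited counts are reads per gene as the authors made them, not normalized. The deposited FPKM of the authors scale each count by gene length and by the total of its library, without a composition factor (205408 of 205408 values above 0 fitted to a relative 0.001). Columns were mapped to groups by their labels, and 0 columns were left unmapped.

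Counts were analysed with edgeR 4.0.16 in R 4.3.3: filterByExpr with a minimum count of 10, TMM factors, and a robust quasi-likelihood fit to all 4 groups with group as the only term. P-values were adjusted by Benjamini-Hochberg over all genes tested. The standard error was the fold change divided by the square root of F. CPM are after TMM. All 10 genes are named in every library. From each other list, counts of calls are given and up to 3 genes called in the largest number of comparisons are named, and other genes named were chosen after their values were seen. One of the genes most like Rgs5 is not reported here. Members and lists were chosen with earlier results of these data known. Alternatives used other size factors, no filter, the groups compared alone, a replicate block, DESeq2 1.42.0, limma 3.58.1 on log2(FPKM + 1) or log2(FPKM + 0.1), where low genes are understated, and leaving out each library. The steps were run on simulated counts with known changes. A set recovery was required only at a low imposed spread, so this does not show how well changes are recovered in these libraries. Replicate numbers were not taken as pairs. Upstream windows came from RefSeq (GRCr8), for 6 of 10 genes. Matplotlib 3.10.9 drew the figures.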

Additional observations from a re-analysis of the deposited data

How the results depend on the processing

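Of 600 values of the 10 genes under settings other than leaving out a library, 533 kept their direction and side of the threshold, 25 newly passed it, 14 no longer passed it and 28 changed sign, the last all in differences that were not called. Where a cause is not named it was not tested.

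With library totals in place of TMM the median gene moved by -0.43, -0.58 and -0.51 on the log2 scale for PLA against NC, GelMA and CTS, and the share of calls that were higher fell to 41.3%, 15.9% and 23.6%, against 67.5%, 75.8% and 64.5% with TMM. In that fit 1 gene was called higher for GelMA against NC, 1 for PLA against GelMA and 1 for PLA against CTS, and 2 differed among the 4 groups. In these comparisons 1216, 438 and 688 of all genes were higher, against 908, 832 and 1158 with TMM. Signs changed for Kcnj8 in GelMA against NC (0.15), PLA against NC (-0.076), PLA against GelMA (-0.23) and PLA against CTS (-0.012), for Myh11 in PLA against NC (-0.069) and for Abcc9 in PLA against CTS (-0.017). RLE size factors gave 4 genes higher for PLA against CTS, where 1212 of all genes were higher. With no filter on low counts 1 gene was higher for PLA against GelMA, where 743 of all genes were. In that fit 1 gene differed among the 4 groups, and Kcnj8 in PLA against NC was -0.010. Fits of only the groups compared gave 0 genes for PLA against NC, 7 for PLA against GelMA and 6 for PLA against CTS. Those fits called 593, 1665 and 1546 of all genes higher. DESeq2 gave 1 lower for GelMA against NC (Cnn1) and 6 higher for PLA against CTS. It called 1485 of all genes lower and 1602 higher there.

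With limma on log2(FPKM + 1), log2(FPKM + 0.1) and log2(FPKM + 1) without a filter, 1, 1 and 0 genes were higher for GelMA against NC, for PLA against GelMA and for PLA against CTS, and 2, 2 and 2 differed among the 4 groups. In the same order of fits, 1028, 1271 and 929 of all genes were higher for GelMA against NC. For PLA against GelMA these were 440, 449 and 369, and for PLA against CTS 625, 671 and 564. Signs changed in these 3 fits for Acta2 in GelMA against NC (0.13, 0.14 and 0.13), for Kcnj8 in GelMA against NC (0.43, 0.69 and 0.43), CTS against NC (0.14, 0.27 and 0.14) and PLA against GelMA (-0.18, -0.22 and -0.18), for Tagln (-0.00063, -0.0029 and -0.00063) and Abcc9 (-0.014, -0.021 and -0.014) in CTS against GelMA, and with the pseudocount of 0.1 for Cnn1 in PLA against NC (0.26).

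Libraries of the same number had correlations of their deviations between -0.11 and 0.12, with 1 of 15 pairs over 0.1. For 5 of 11 libraries the most alike library of another group had the same number. The numbers were not taken as pairs, but this check could not exclude a pairing, since the deviations of the 2 PLA libraries mirror each other by construction. With the replicate block 4 genes were called for PLA against NC, 3 for PLA against GelMA and 4 for PLA against CTS, among them Tagln against NC (adjusted p = 0.0211) and Acta2 against CTS (0.0174), which did not pass without the block, and the signs of Kcnj8 in GelMA against NC (0.12) and of Cnn1 in PLA against NC (0.90) changed. The block fit called 1333, 607 and 998 of all genes higher in these comparisons of PLA, against 1502, 832 and 1158 without it.

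Leaving out each library in turn gave 0 to 1 genes higher and 0 to 2 lower for GelMA against NC, 0 to 5 higher for PLA against NC, 0 to 2 for PLA against GelMA, 0 to 6 for PLA against CTS and 0 to 5 that differed among the 4 groups. Log2 fold changes that changed sign ranged, for GelMA against NC, from -0.58 to 0.078 for Acta2, -0.15 to 0.91 for Pdgfrb, -2.04 to 0.69 for Abcc9 and -0.71 to 1.49 for Kcnj8. For CTS against NC they ranged from -0.92 to 0.040 for Tagln, -2.24 to 1.26 for Cnn1, -0.0030 to 1.22 for Rgs5, -0.86 to 0.21 for Pdgfrb, -1.94 to 0.80 for Abcc9 and -1.21 to 1.34 for Kcnj8. For PLA against NC they ranged from -0.089 to 0.85 for Myh11, -1.47 to 1.97 for Cnn1, -1.47 to 1.26 for Abcc9 and -0.40 to 1.80 for Kcnj8, and for CTS against GelMA from -0.35 to 0.40 for Tagln, -0.014 to 0.72 for Myh11, -0.74 to 0.099 for Cspg4, -0.48 to 0.27 for Mcam, -0.18 to 0.37 for Abcc9 and -0.91 to 0.16 for Kcnj8. The lowest read counts of the 10 genes were those of Cnn1, down to 4 in GelMA and NC.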
